A study of Mus musculus with 34 samples.

Results

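The genes of the translation initiation factors, eIF1 to eIF6, were followed in the left ventricle (LV) of CFW mice after myocardial infarction (MI). They were taken as the expressed genes whose symbols begin with Eif and a digit from 1 to 6, leaving out Eif2ak2, an antiviral kinase. This gave 52 genes of 12487 tested in the infarct series and 52 of 12555 tested in the modRNA series. No matching gene was lost to the filter, a mean of at least 1 CPM (read counts as scaled by the authors). These values do not sum to the same total in every library. Library totals ran from 568058 to 662286 CPM in the infarct series and from 508204 to 818456 CPM in the modRNA series. The left anterior descending coronary artery was tied off for good to cause the MI, and poly(A) RNA was sequenced from the ischemic area of the LV or the same area of a sham heart. The infarct series held 3 sham hearts, 3 hearts at 4 h and 4 at 24 h after MI, none of them injected. For the sham hearts of that series the titles say sham while another label says that no operation was done, and no time is given. In the modRNA series, Luc modRNA (a chemically modified mRNA for luciferase, the control) or AC modRNA (a name the labels do not expand) was injected into the infarct border right after ligation. It held 4 hearts of each modRNA at 4 h, 3 of each at 24 h and 4 of each at 48 h, besides 2 uninjected sham-operated hearts taken at 4 h. The ages of the mice are not given in the sources used here. No label says how hearts were paired or batched, so p-values measure the spread between these libraries. In the modRNA series, sham and 4 h titles share a run of numbers, and 48 h titles have their own. The 24 h titles carry letters instead. What these forms stand for is not stated. A difference between them cannot be told apart from time after MI at 24 h and 48 h. The libraries of the infarct series rested on an estimated 12553519 to 18952669 reads each. For this estimate the smallest CPM value of a library was taken as 1 read. The depth of single libraries in the modRNA series could not be read back from its values.

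Initiation is the step at which a ribosome is placed on the start codon of an mRNA, and it is the step at which much of translational control takes place. eIF4E binds the cap at the 5′ end and, with the scaffold eIF4G and the RNA helicase eIF4A, prepares the mRNA, while the eIF4E-binding proteins keep eIF4E from the scaffold until mTORC1 phosphorylates them. eIF2 brings the initiator tRNA, eIF2B reloads eIF2 with GTP, and kinases that phosphorylate the eIF2 α subunit in stress block that reloading. eIF1, eIF1A and eIF3 hold the small ribosomal subunit open for scanning, eIF5 and eIF5B complete the joining of the subunits, and eIF6 keeps free large subunits apart. The study looked in the ischemic heart for mRNA elements that raise the output of an injected mRNA, and these genes encode the machinery that reads such elements.

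Promoter letters are shown first, since many of the members moved together at 24 h. In the 250 bases before the RefSeq start sites (GRCm38.p6), 41 of the 52 genes had a sequence, and 9 of the 41 held the palindromic E-box CACGTG, the letters that Myc and related factors recognise: Eif1b, Eif3f, Eif3k, Eif4a1, Eif4e, Eif4g1, Eif4h, Eif5a and Eif5a2. The same letters stood before 6.86% of 27025 genes and before 9.93% of the 9690 tested genes with a promoter sequence. The C/EBP-ATF response element TGATGNAA, which ATF4 recognises, searched on both strands, was found in 1 of the 41, Eif2s3x, and in 2.4% of tested genes. The windows below run 5′ to 3′ on the strand of the gene with the motif in capitals. They belong to genes that rose at 24 h (Eif4a1, Eif5a, Eif4h, Eif2s3x), to a gene that was called lower there in only some settings (Eif4e) and to a gene that was not called (Eif4g1).
Eif4a1, chr11:69672595-69672624, minus strand, 184 bases before the start: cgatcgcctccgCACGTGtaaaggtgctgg
Eif5a, chr11:69921443-69921472, minus strand, 69 bases before 1 of its 6 listed starts: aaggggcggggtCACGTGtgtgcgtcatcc
Eif4h, chr5:134639488-134639517, minus strand, 91 bases before the start: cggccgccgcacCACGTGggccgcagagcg
Eif4e, chr3:138527192-138527221, plus strand, 59 bases before 1 of its 2 listed starts: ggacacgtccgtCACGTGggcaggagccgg
Eif4g1, chr16:20672661-20672690, plus strand, 49 bases before the start: ggcagtgggtgtCACGTGatggggcggagc
Eif2s3x, chrX:94212728-94212759, minus strand, 89 bases before the start: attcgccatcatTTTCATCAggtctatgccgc
The E-box thus stood both before members that rose and before members that did not. A match is a description of the letters and not of a bound factor.

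At 4 h after MI the initiation factor genes were close to their sham levels, and at 24 h most of them were higher. In the limma fit of log2(CPM + 1), with q the Benjamini-Hochberg adjusted p over all tested genes and a call at q under 0.05, Eif1a alone was called at 4 h against sham, which is 1.92% of members beside 1.55% of all genes called higher and 0.817% called lower. Another 6 members passed an unadjusted p of 0.05 there, so 7 of 52 in all, beside 2058 of the 12487 genes tested. At 24 h against sham, 37 of 52 members rose (71.2%, beside 35.6% of all genes) and 4 fell (7.69%, beside 30.3%). The median log2 fold change of the 52 was 0.46 against 0.04 over all genes. Between 4 h and 24 h, 34 rose (65.4%, beside 37.2%) and 3 fell (5.77%, beside 26.7%), a comparison that shares the 24 h libraries with the previous one. The members together took 0.679% to 0.724% of all CPM in the sham hearts, 0.686% to 0.707% at 4 h and 0.929% to 1.06% at 24 h. The libraries of 14 of 52 members did not overlap between 4 h and sham, beside 28.8% of all genes. Between 24 h and sham this held for 41, beside 64%, and between 4 h and 24 h for 40, beside 62.2%.

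**Figure D1:**
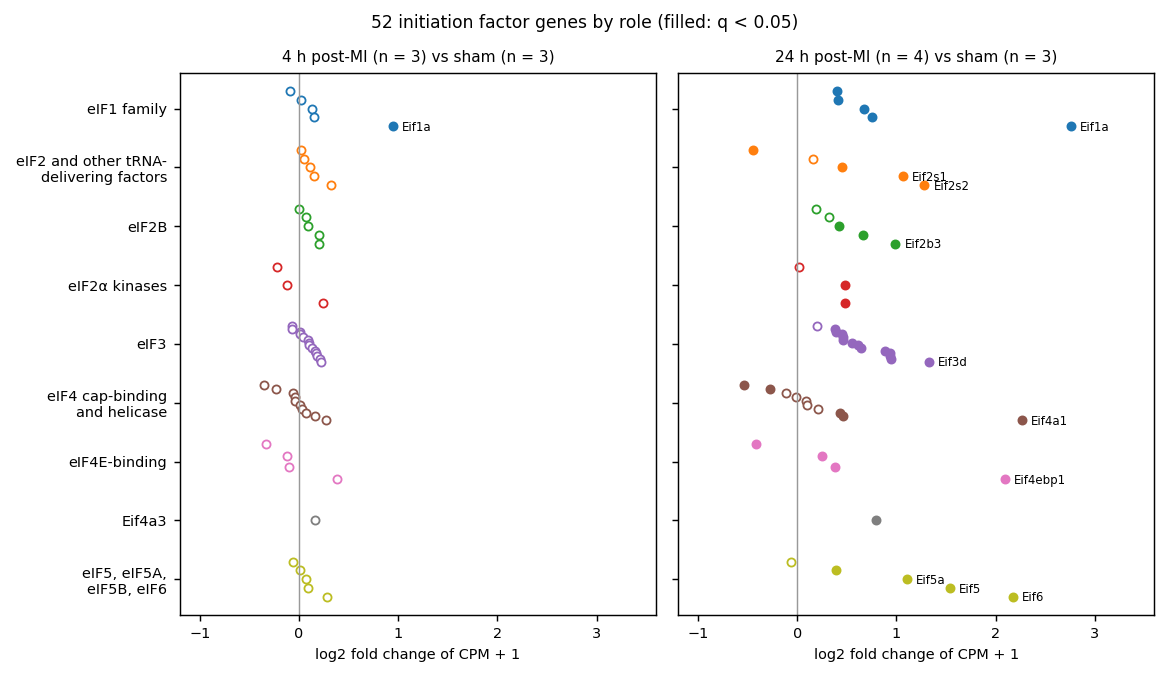
Each point is 1 of the 52 initiation factor genes, placed by its log2 fold change of CPM + 1 against sham (x axis) and grouped by role (y axis), at 4 h and at 24 h after MI; filled points passed q under 0.05. Only Eif1a is filled at 4 h, and 41 points are filled at 24 h, 37 to the right of 0 and 4 to the left.

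The 5 genes of the eIF1 family all rose at 24 h, with a median log2 fold change of 0.68. Of these Eif1ad (0.75 ± 0.10) shares a domain with eIF1A and is counted by its name, not as a scanning factor. Eif1a, 1 of a pair of genes for the scanning factor eIF1A, moved most. Eif1a (chromosome 18, 46597704-46610226, mm10) was at 15.2, 13.6 and 12.9 CPM in the sham hearts, at 24.5, 35.9 and 24.1 at 4 h, and at 105, 105, 83.5 and 108 at 24 h. No library of a later group reached down to an earlier one. The log2 difference from sham was 0.95 ± 0.16 (SE; q = 0.0088) at 4 h and 2.76 ± 0.15 (q = 1.5e-07) at 24 h, a 7.22-fold higher mean. The call at 4 h lost the threshold without sham library H (q = 0.0525) or sham library I (q = 0.0502). Its X-linked counterpart Eif1ax was at 29.9, 26.3 and 25.2 CPM in sham, at 30.6, 28.5 and 31.5 at 4 h, and at 42.2, 41.7, 41.7 and 50.5 at 24 h (0.68 ± 0.10, q = 0.00013). Per kilobase of transcript, Eif1a stood at 0.915 to 0.935 times Eif1ax in the sham hearts, at 1.38 to 2.28 times at 4 h and at 3.61 to 4.53 times at 24 h. Per kilobase the order of the 2 genes was thus turned between sham and 4 h in every library. This turn rests on the transcript lengths used, 2865 and 5172 nt. In CPM at 4 h, Eif1a was still below Eif1ax in libraries C (24.5 against 30.6) and E (24.1 against 31.5). It was above in library D (35.9 against 28.5). Eif1, which guards start codon choice, was at 236, 239 and 211 CPM in sham and at 301, 317, 277 and 312 at 24 h (0.40 ± 0.10, q = 0.0030). Its paralog Eif1b was at 27.4, 25.8 and 24 CPM in sham and at 33.5, 30.4, 35.6 and 38.8 at 24 h (0.41 ± 0.11, q = 0.0077). The per kilobase ratio of Eif1 to Eif1b stayed between 6.08 and 8.37 in the 10 libraries. Reads that match both genes of such a pair were divided between them by the authors' counting, so the split within a pair is less certain than the sum.

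Among the genes of eIF2 and other tRNA-delivering factors, the 3 subunits of eIF2 rose at 24 h, while a factor that works outside it fell. Eif2s2, the β subunit, was at 67.7, 61.9 and 61.6 CPM in sham, at 73.4, 81 and 85.1 at 4 h, and at 158, 152, 139.5 and 179 at 24 h (1.28 ± 0.10, q = 1.6e-06). Eif2s1, the α subunit that stress kinases phosphorylate, rose by 1.07 ± 0.14 (q = 4e-05). The γ subunit gene Eif2s3x was at 136, 139 and 132 CPM in sham and at 175, 169.7, 205 and 200.1 at 24 h (0.46 ± 0.09, q = 0.0013), the smallest change of the 3. Its Y-linked counterpart Eif2s3y is not listed among the genes of either series. Eif2d, which can deliver tRNA without eIF2, was at 26.1, 24 and 22 CPM in sham, at 25.2, 25.4 and 24.3 at 4 h, and at 16.1, 16, 19.5 and 18.2 at 24 h. All 4 libraries at 24 h lay below all 6 others, and the change from sham was −0.44 ± 0.10 (q = 0.0023). Eif2a, an alternative tRNA carrier, was not called at 24 h (0.16 ± 0.09, q = 0.14).

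Of the 5 subunit genes of eIF2B, the exchange factor that reloads eIF2, 3 rose at 24 h and 2 were not called. Eif2b3 was at 8.75, 9.8 and 9.55 CPM in sham, at 10.1, 11.2 and 11.5 at 4 h, and at 19, 17.5, 19.5 and 22.6 at 24 h (0.99 ± 0.11, q = 1.3e-05). Eif2b2 rose by 0.67 ± 0.12 (q = 0.00036) and Eif2b5, the catalytic subunit, by 0.42 ± 0.09 (q = 0.0015). Of the kinases that shut this exchange down, Eif2ak4 (GCN2, which senses uncharged tRNA) was at 8.5, 6.9 and 7.02 CPM in sham, at 8.8, 11 and 7.55 at 4 h, and at 10.7, 11.9, 10.6 and 10.2 at 24 h (0.49 ± 0.13, q = 0.0065). Its groups overlapped between sham and 4 h but not between sham and 24 h. Eif2ak3 (PERK, the endoplasmic reticulum stress kinase) rose by 0.48 ± 0.13 (q = 0.0064). Eif2ak1, the heme-sensing kinase, stood at 0.02 ± 0.10 (q = 0.89), with a 95% interval from −0.19 to 0.23.

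Of the 14 genes listed for eIF3, the largest initiation factor, 13 rose at 24 h, by log2 differences between 0.38 (Eif3m) and 1.33 (Eif3d), with a median of 0.58 over the 14. Eif3d, a subunit that can itself bind the cap of some mRNAs, was at 43.9, 39.5 and 38.8 CPM in sham, at 43.5, 42 and 45.1 at 4 h, and at 103, 94.2, 107 and 113 at 24 h (q = 6.4e-07). The sham and 4 h libraries were mixed in order, and the 24 h libraries lay apart. Eif3g rose by 0.94 ± 0.09 (q = 3.7e-06) and Eif3b, a core scaffold subunit, by 0.89 ± 0.08 (q = 2.7e-06). Eif3a, the other core scaffold, rose by 0.46 ± 0.09 (q = 0.00093). Eif3f was the member not called (0.20 ± 0.10, q = 0.093). Eif3j1 was at 24.8, 26.3 and 22.5 CPM in sham, at 21.2, 24.4 and 24.6 at 4 h, and at 46, 41.7, 46.3 and 58.5 at 24 h. Eif3j2 was at 26.9, 28.5 and 24.4 CPM in sham, at 23, 26.4 and 26.7 at 4 h, and at 49.9, 45.1, 50.2 and 63.3 at 24 h. In the deposited annotation the 2 genes cover the same stretch of chromosome 2 (122028580-122053633) and their ratio lay between 1.083 and 1.085 in every library of that series, so they are 1 measurement. With the 2 taken once, 12 of 13 eIF3 genes and 36 of 51 members rose at 24 h.

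Of the 10 cap-binding and helicase genes 3 rose, 2 fell and 5 were not called at 24 h, shares not far from the 35.6% higher and 30.3% lower of all genes, and their median log2 fold change was 0.10. Eif4a1, the main eIF4A helicase (chromosome 11, 69666936-69672424, minus strand), was at 111, 95.1 and 98.7 CPM in sham, at 121, 127 and 121 at 4 h, and at 508, 487, 437 and 545 at 24 h. This was a difference of 2.27 ± 0.10 from sham (q = 6.2e-08), a 4.86-fold higher mean, while at 4 h it stood at 0.27 with q = 0.24. Its paralog Eif4a2 (chromosome 16, 23107397-23114139) was at 279, 268 and 229 CPM in sham, at 249, 238 and 254 at 4 h, and at 256, 253, 287 and 318 at 24 h. The groups of Eif4a2 overlapped (0.10 ± 0.11, q = 0.43; 95% interval −0.14 to 0.35). Per kilobase, Eif4a1 was at 0.442 to 0.536 times Eif4a2 in the sham hearts, at 0.592 to 0.661 times at 4 h and at 1.89 to 2.47 times at 24 h. The helicase pair therefore changed order between 4 h and 24 h in all libraries. Eif4e, the cap-binding protein itself (chromosome 3, 138526191-138559697), was at 96.8, 104 and 121 CPM in sham, at 99.1, 107 and 118 at 4 h, and at 81.1, 90.2, 84.5 and 97.3 at 24 h. Its groups touched and its change from sham was −0.27 ± 0.11 (q = 0.041), a call kept under 9 of 20 alternatives. Eif4e3, a cap-binding homolog, was at 37.9, 38.2 and 44.4 CPM in sham, at 40.5, 39.8 and 42.2 at 4 h, and at 21.9, 27.5, 33.3 and 27.4 at 24 h (−0.54 ± 0.13, q = 0.0028). Eif4e2, another cap-binding homolog, went the other way (0.43 ± 0.11, q = 0.0055). Its mean was 42.2 CPM in sham, 32.8 at 4 h and 57.3 at 24 h. The scaffolds Eif4g1, Eif4g2 and Eif4g3 were not called, with 0.09 ± 0.12 (q = 0.54), −0.12 ± 0.12 (q = 0.40) and −0.02 ± 0.12 (q = 0.92). The helicase cofactor Eif4h rose by 0.46 ± 0.08 (q = 0.00042), and Eif4b, the other cofactor, was not called (0.21 ± 0.10, q = 0.083).

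Of the 4 genes for eIF4E-binding proteins 3 rose at 24 h and 1 fell, and the pair Eif4ebp1 and Eif4ebp2 went opposite ways. Eif4ebp1 (chromosome 8, 27260327-27275657) was at 26.1, 28.8 and 27.1 CPM in sham, at 37.4, 37.6 and 33 at 4 h, and at 138, 128, 98.8 and 119 at 24 h (2.10 ± 0.12, q = 1.7e-07; 4.42-fold higher mean). At 4 h its libraries already lay above all sham libraries, yet the difference of 0.39 was not called (q = 0.16). Eif4ebp2 was at 24.2, 22.9 and 21.5 CPM in sham, at 19.6, 17 and 17.2 at 4 h, and at 17.4, 15.1, 18.4 and 16.7 at 24 h (−0.41 ± 0.10, q = 0.0033). Eif4ebp3, a low gene, rose by 0.38 ± 0.14 (q = 0.036), and Eif4enif1, which carries eIF4E into the nucleus, by 0.25 ± 0.10 (q = 0.049). These 2 calls are weak, since they were kept under 11 of 19 and 7 of 20 alternatives. Per kilobase, Eif4ebp1 was at 0.770 to 0.897 times Eif4ebp2 in sham, at 1.36 to 1.57 times at 4 h and at 3.81 to 5.998 times at 24 h. Against its target, Eif4ebp1 was at 0.328 to 0.406 times Eif4e in sham, at 0.411 to 0.552 times at 4 h and at 1.71 to 2.49 times at 24 h. The mRNA of the inhibitor thus passed that of eIF4E at 24 h in all 4 libraries. These are mRNA levels, and phosphorylation and protein were not measured in these files.

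**Figure D2:**
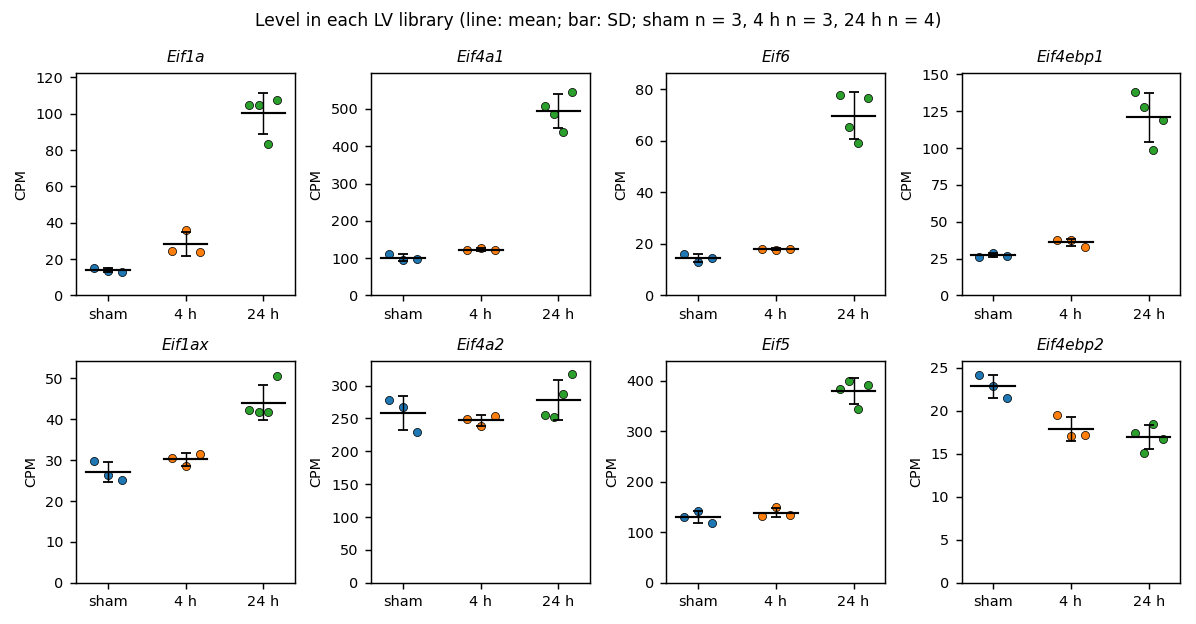
Level of selected initiation factor genes in each of the 10 uninjected hearts (y axis, CPM from 0), grouped as sham, 4 h and 24 h after MI, with 1 point per library, a line for the mean and a bar for the SD. Eif1a, Eif4a1, Eif4ebp1 and Eif6 step up at 24 h, and Eif4a2 stays between 229 and 318 CPM.

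**Figure D3:**
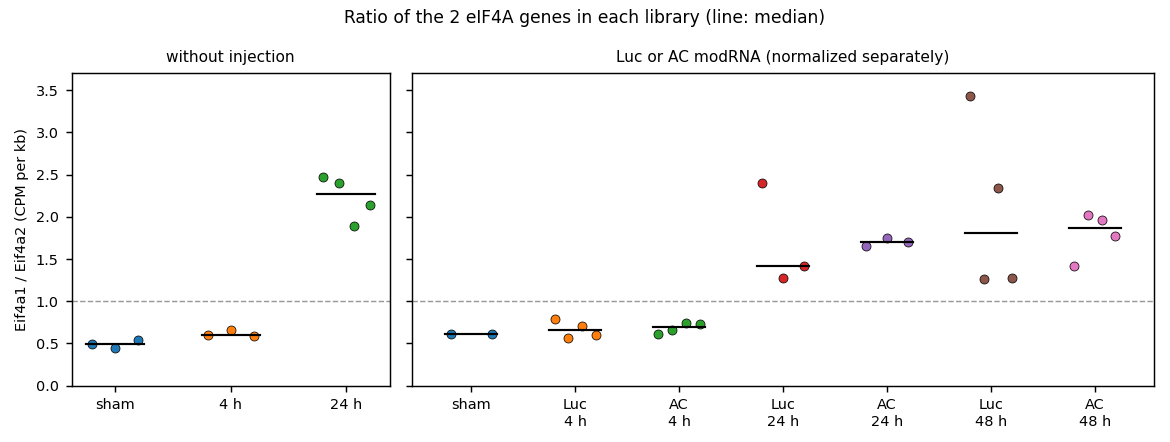
Ratio of Eif4a1 to Eif4a2 per kilobase of transcript in each of the 34 libraries (y axis, from 0), by group, with 1 point per library and a line for the median. The ratio lies below 1 in every sham and 4 h heart, at most 0.793, and above 1 in every 24 h and 48 h heart, at least 1.26.

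Of the 5 genes for eIF5, eIF5A, eIF5B and eIF6, which have different roles around the joined ribosome, 4 rose at 24 h, with a median of 1.10. Eif6, the anti-association factor of the large subunit (chromosome 2, 155819837-155826926, minus strand), was at 16.2, 13.1 and 14.5 CPM in sham, at 18.1, 17.6 and 18.2 at 4 h, and at 77.9, 65.3, 59 and 76.5 at 24 h (2.18 ± 0.12, q = 1.5e-07; 4.78-fold). Eif5, the GTPase activator of eIF2, was at 130.4, 142 and 118 CPM in sham and at 385, 399, 343 and 392 at 24 h (1.54 ± 0.10, q = 4.9e-07). Eif5a, which helps ribosomes past hard stretches such as proline runs, was at 188, 186 and 169 CPM in sham and at 401, 370.4, 361 and 429 at 24 h (1.10 ± 0.10, q = 3e-06). The same gene stood between 184 and 201 CPM at 4 h. Eif5b, the subunit-joining GTPase, was not called (−0.07 ± 0.09, q = 0.53). Eif4a3 is a helicase of the exon junction complex and not of cap-dependent initiation. It was at 26.1, 21.9 and 24.3 CPM in sham, at 25.4, 26.6 and 29 at 4 h, and at 38.8, 43.4, 44.6 and 43.6 at 24 h (0.80 ± 0.09, q = 2.4e-05).

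The makeup of the tissue and of the libraries moved with these results. All 10 neutrophil and monocyte markers rose at 24 h, led by S100a9 and S100a8 (8.22 and 7.45 on the log2 scale), and their summed level went from 62.5 to 121 CPM in sham and 94.9 to 121 at 4 h to 569 to 2384 at 24 h. S100a8 and S100a9 were near 0 in sham, with means of 0.197 and 0.408 CPM. Of 8 cardiomyocyte markers 4 fell, led by Pln (−2.44) and Myh6 (−1.77), and their sum went from 48004 to 51283 CPM in sham to 20873 to 35358 at 24 h. Of 6 fibroblast markers 3 fell and of 5 endothelial markers 2 fell, and at 4 h 6 of 7 erythroid markers rose. In bulk tissue, fewer cells of a type and less RNA per cell cannot be told apart, and the part of cell makeup in the members' rise was not tested. The balance of long against short transcripts also differed, with a log2 value of 0.075 to 0.283 in sham, −0.049 to −0.010 at 4 h and −0.230 to 0.043 at 24 h. With that balance as a covariate, 18 members were called higher and none lower at 24 h, among them Eif1a (2.35), Eif4a1 (1.92), Eif4ebp1 (1.90), Eif6 (1.76), Eif5 (1.36) and Eif3d (1.21). Over all 12487 genes this setting called 2064 higher and 733 lower, against 4449 and 3787 without the covariate. Eif1a was no longer called at 4 h (0.65, q = 0.391). Without 24 h library G, which correlated least with its group, 37 members rose and 3 fell at 24 h, beside 4405 and 4249 of all genes.

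Other genes of translational control were taken from lists chosen for their function, and their counts stand beside 35.6% of all genes higher and 30.3% lower at 24 h. Of 24 regulators of initiation, 11 rose and 4 fell at 24 h (median 0.16), of 11 elongation and release factors 6 rose and 1 fell (0.57), and of 14 genes of mTORC1 signalling 4 rose and 5 fell (−0.24). At 4 h 1 regulator rose and 1 fell, no elongation or release gene was called in limma, and 1 gene of mTORC1 signalling rose and 1 fell. Ppp1r15a (GADD34, the stress-induced subunit of the eIF2 α phosphatase) rose already at 4 h, by 1.59 ± 0.17 (q = 0.00053), and at 24 h by 3.16 ± 0.16 (q = 1.2e-07; 215 against 22.8 CPM in sham). Atf4, a transcription factor whose own mRNA is translated when eIF2 is phosphorylated, was not called at 4 h (0.47, q = 0.21) and rose by 2.59 ± 0.16 at 24 h (q = 3.4e-07). In the mTORC1 list the inhibitors Ddit4 (1.46, q = 0.034 at 4 h, and 1.63, q = 0.00045 at 24 h) and Sesn2 (2.10, q = 7.5e-06 at 24 h) led. Other inhibitors of the list had lower means at 24 h than in sham. These were Deptor (3.71 against 11.9 CPM), Tsc2 (40.0 against 76.9), Tsc1 (22.6 against 35.4), Sesn1 (53.1 against 109.6) and Sesn3 (3.33 against 5.55). Akt1s1, also an inhibitor, had a higher mean (35.0 against 26.3). Of the elongation factor pair, Eef1a1 rose by 1.56 ± 0.13 (q = 1.7e-06) and Eef1a2, the muscle form, fell by 0.63 ± 0.14 on the log2 scale (q = 0.0025). Their ratio per kilobase went from 0.430 to 0.599 in sham to 1.79 to 3.36 at 24 h. Eef1e1, a scaffold of tRNA synthetases, rose by 1.41 ± 0.16 (q = 2e-05).

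In the Luc modRNA hearts the members stood near their sham levels at 4 h, and some were higher and others lower at 24 h and 48 h. In limma 0 of the 52 members were called in Luc hearts at 4 h against sham. Of all genes 1.25% were called higher and 0.295% lower there. An unadjusted p of 0.05 was passed by 1 member, beside 1710 of all 12555 genes. At 24 h, 16 of 52 rose (30.8%, beside 25.3% of all genes) and 3 fell (5.77%, beside 8.79%), and at 48 h 6 rose (11.5%, beside 13.7%) and 8 fell (15.4%, beside 16.4%). These shares lie close to those of all genes, and the 3 comparisons share the same 2 sham hearts. The median log2 fold changes of the members were −0.03, 0.22 and 0.00, against 0.02, 0.16 and −0.03 over all genes. Groups did not overlap for 15, 29 and 18 members in turn, beside 32.5%, 55.9% and 40.8% of all genes. Against the Luc hearts at 4 h, 17 members rose at 24 h (32.7%, beside 24.5%) and 2 fell (3.85%, beside 7.8%). From 24 h to 48 h, 3 rose (5.77%, beside 9.32%) and 16 fell (30.8%, beside 32.6%). The scaling decided the balance here: with all libraries set to equal totals, 7 rose and 9 fell at 24 h against sham, 11 rose and 4 fell at 48 h against sham, and 13 rose and 1 fell from 24 h to 48 h. With median-ratio rescaling the counts were 11 and 7, 8 and 7, and 7 and 7. Rescaling moves all genes of a library together, and calls over all genes under these scalings are not set beside these counts. The turned balance is thus not read as a trait of the members. Over all genes the median log2 fold change from 24 h to 48 h was −0.25 as deposited, −0.02 after median-ratio rescaling and 0.18 at equal totals.

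**Figure D4:**
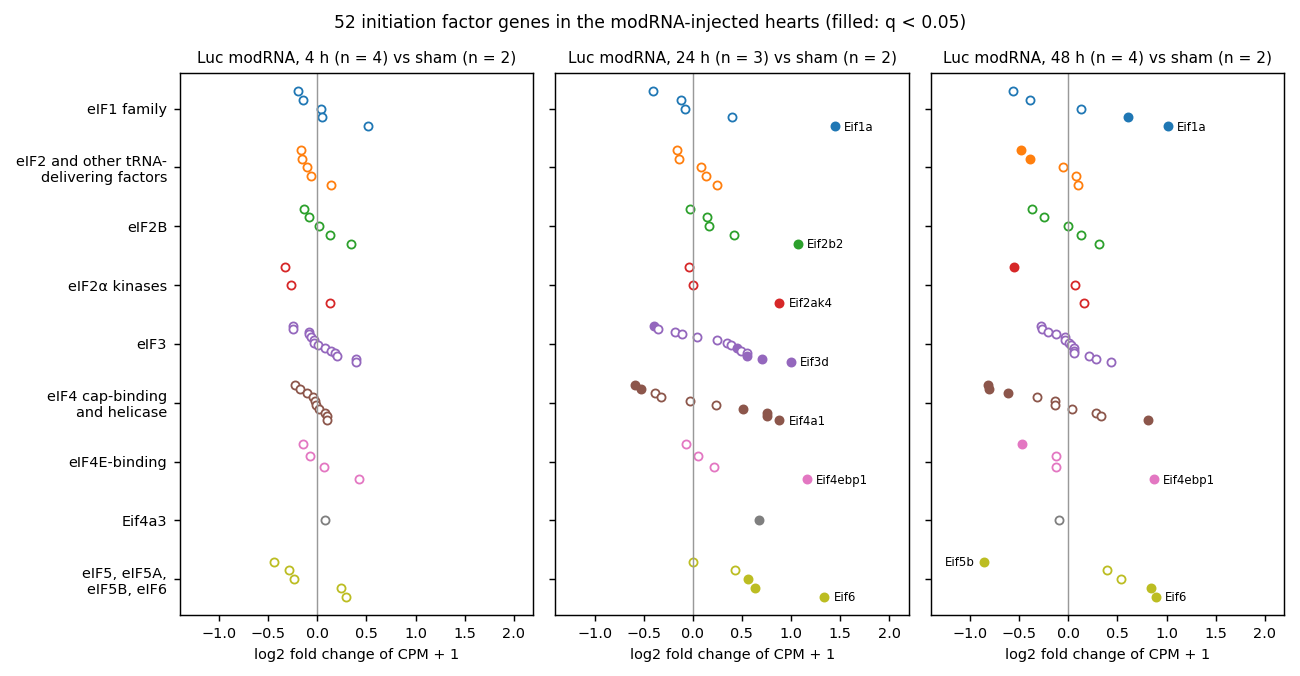
Log2 fold change of CPM + 1 against the 2 sham hearts (x axis) of the 52 initiation factor genes, by role (y axis), in Luc modRNA hearts at 4 h, 24 h and 48 h; filled points passed q under 0.05. No point is filled at 4 h, 19 are at 24 h and 14 at 48 h.

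Eif1a, Eif4a1, Eif6 and Eif4ebp1, which led the infarct series, were called higher than sham in the Luc hearts at 24 h and 48 h, under all 3 scalings. Eif1a was at 22.8 and 15.9 CPM in sham, at 30.0, 24.5, 31.4 and 25.2 in Luc hearts at 4 h, at 56.8, 51.3 and 53.2 at 24 h, and at 48.8, 32.7, 54 and 28.1 at 48 h. Its log2 difference from sham was 1.45 (q = 0.00024) at 24 h and 1.02 (q = 0.0036) at 48 h, and the 48 h libraries 2 and 4 lay near the 4 h level. Eif4a1 was at 191 and 126 CPM in sham, at 181, 139.6, 164 and 146 at 4 h, at 381, 232 and 266 at 24 h, and at 405, 228, 308 and 194 at 48 h (0.88, q = 0.0080 and 0.81, q = 0.011 against sham). Eif6 was at 17.6 and 16.2 CPM in sham, at 27, 18.5, 17.8 and 18.5 at 4 h, at 52.9, 36.3 and 44.9 at 24 h, and at 43.6, 22.1, 46.2 and 23.8 at 48 h. Eif4ebp1 was at 35.5 and 37.7 CPM in sham, at 59.4, 48.1, 40.9 and 50.4 at 4 h, at 88.2, 72.2 and 89.9 at 24 h, and at 89.5, 49.4, 97.5 and 49.4 at 48 h. In all 4 genes the 48 h libraries 1 and 3 were higher than 2 and 4. Eif3d was at 46.1 and 49.7 CPM in sham, at 60.6, 50.8, 49.2 and 51.9 at 4 h, at 99.2, 86 and 105 at 24 h, and at 82.9, 55.1, 74.9 and 51.7 at 48 h, and was called at 24 h (0.99, q = 0.00041) but not at 48 h.

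These calls rest on 2 sham hearts that differed from each other. Without sham heart 1 the difference at 48 h was 1.26 (q = 0.00914) for Eif1a and 1.11 (q = 0.0119) for Eif4a1, and without sham heart 2 it was 0.77 (q = 0.0782) and 0.51 (q = 0.204). At 24 h Eif4a1 also lost its call without sham heart 2 (0.58, q = 0.138), and Eif1a kept it without either. Eif6 and Eif4ebp1 were called at 24 h without either sham heart, and at 48 h in neither case, with differences between 0.83 and 0.95. Without sham heart 1, 9 members rose and 0 fell at 24 h in limma, and 4 rose and 4 fell at 48 h. The balance of long against short transcripts was −0.150 and 0.370 in the 2 sham hearts. With that balance as a covariate 22 members were called at 48 h, 10 higher and 12 lower. Calls over all genes in these settings are not set beside these counts, so the counts are not read as particular to the members.

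Other members fell or stood lower at the later times. Eif5b, which was not called in the infarct series, was at 133 and 127 CPM in sham, at 109.8, 104, 108 and 103 at 4 h, at 124, 125 and 144 at 24 h, and at 82.4, 67.3, 68 and 68 in Luc hearts at 48 h. Its 48 h libraries lay below all others, with −0.86 against sham (q = 0.00049), and the call held without sham heart 1 (−0.83, q = 0.0115) and without sham heart 2 (−0.89, q = 0.00529). Eif4a2 was at 388 and 256 CPM in sham, at 284, 306, 286 and 299 at 4 h, at 198, 227 and 234 at 24 h, and at 147, 224, 164 and 189.8 at 48 h. It was lower by −0.52 (q = 0.039) at 24 h and −0.81 (q = 0.0021) at 48 h, yet without sham heart 1 the differences were −0.22 (q = 0.528) and −0.51 (q = 0.109). Eif4e was at 167 and 105 CPM in sham, at 141, 121, 129 and 130.5 at 4 h, at 71.1, 97.4 and 97.6 at 24 h, and at 72.2, 76.2, 69.5 and 83 at 48 h (−0.59, q = 0.035 and −0.81, q = 0.0042). Without sham heart 1 these differences were −0.25 (q = 0.515) and −0.47 (q = 0.176). All 7 Luc libraries at 24 h and 48 h lay below the 6 sham and 4 h libraries for Eif4a2 and for Eif4e. The per kilobase ratio of Eif4a1 to Eif4a2 was 0.612 and 0.613 in sham, 0.568 to 0.793 in Luc hearts at 4 h, 1.27 to 2.40 at 24 h and 1.26 to 3.42 at 48 h. A ratio within a library does not depend on the scaling.

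Some members of the eIF1, eIF2, eIF3 and eIF4 groups had other courses. The scaffolds Eif4g1 and Eif4g3 rose at 24 h against sham, each by 0.75, and neither was called at equal totals. At 24 h 4 eIF3 genes rose and 1, Eif3j2, fell (−0.39, q = 0.049), while its overlapping partner Eif3j1 missed the threshold at −0.35. The Eif3j2 call was kept under 12 of 33 alternatives and the Eif3c rise under 19 of 33. At 48 h no eIF3 gene was called against sham. Eif1ax was at 24.8, 22.2 and 24.4 CPM at 24 h and at 50.8, 42.8, 37.6 and 31.3 at 48 h, the largest of the 3 rises between those times (0.73). Eif2b2 rose at 24 h by 1.07 (q = 0.0023) and Eif2ak4 by 0.88. Of the falls at 48 h, Eif4e3 stood at −0.61, Eif2ak1 at −0.55, Eif2d at −0.48, Eif4ebp3 at −0.47 and Eif2a at −0.39, the last with overlapping groups. In the other lists, 9 of 24 initiation regulators rose and 3 fell in Luc hearts at 24 h, with Atf4 at 1.57 (q = 0.00013) and Ppp1r15a at 1.45 (q = 0.020), and 3 rose and 5 fell at 48 h. Of the neutrophil and monocyte markers 8 of 10 rose at 24 h and 9 at 48 h. Their sums overlapped between sham (77.4 to 158 CPM) and Luc hearts at 24 h (122 to 180). In Luc hearts the sum was 196 to 309 at 4 h and 284 to 615 at 48 h. The 4 atrial markers rose at 24 h, from a sum of at most 117 CPM in sham to 362 to 603. Summed cardiomyocyte markers were at 51551 to 52868 CPM in sham and at 61072 to 77516 in Luc hearts at 24 h, where 1 of 8 rose and 1 fell. Of 6 fibroblast markers 4 rose at 24 h and 3 at 48 h, and at 48 h 2 of 8 cardiomyocyte markers and 3 of 7 erythroid markers fell. The part of these tissue shifts in the members' values was not tested.

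AC modRNA and Luc modRNA were compared at each time, and no initiation factor gene was called. In limma 0 of 52 members were called at 4 h (1 at an unadjusted p under 0.05; 0.00796% of all genes called), 0 at 24 h (2 unadjusted; 0.00796%) and 0 at 48 h (3 unadjusted; 15.3%). Unadjusted, 131, 599 and 3808 of all 12555 genes passed in turn. At 48 h the AC and Luc hearts thus differed in many genes, and the lowest q of a member was 0.082, for Eif4e. AC and Luc libraries did not overlap for 1 member at 4 h, 9 at 24 h and 3 at 48 h. Among all genes this held for 2.02%, 9.33% and 19.1%. Eif4e was at 72.2, 76.2, 69.5 and 83 CPM in the Luc hearts and at 119.7, 89.2, 93.5 and 104 in the AC hearts at 48 h, so that the groups did not overlap. The difference was 0.42 with a 95% interval from 0.09 to 0.76, and it passed the threshold with array weights (q = 0.0121), at equal totals (q = 0.025) and with the transcript length balance as a covariate (q = 0.00915). Eif2s1 was at 47.3, 48.4, 35.6 and 38.6 CPM with Luc and at 60.2, 50.3, 52.3 and 52.9 with AC at 48 h (0.35, interval 0.05 to 0.64, q = 0.11). At 24 h Eif3j1 was at 20.6, 18.8 and 16.9 CPM with Luc and at 24.5, 23.5 and 22.4 with AC (0.31, q = 0.97). At 4 h Eif4ebp3 was at 6.12, 5.68, 4.87 and 5.45 CPM with Luc and at 4.15, 3.73, 4.62 and 4.44 with AC (−0.32, interval −0.58 to −0.05, q = 1).

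The sizes that these comparisons leave possible can be read from their intervals. The 95% intervals of all 52 members lay within 1 log2 unit of 0 at each of the 3 times, and the median distance from the estimate to either bound was 0.318, 0.368 and 0.319. The differences ran from −0.32 (Eif4ebp3) to 0.22 (Eif1a) at 4 h, from −0.34 (Eif2b2) to 0.35 (Eif3j2) at 24 h, and from −0.28 (Eif1) to 0.42 (Eif4e) at 48 h. Whether the AC and Luc difference changed with time was tested by interaction terms, and 0 members were called in limma between 24 h and 4 h (1 unadjusted; 0.00796% of all genes called), between 48 h and 4 h (1 unadjusted; 3.35%) and between 48 h and 24 h (0 unadjusted; 2.56%). Unadjusted, 379, 2349 and 2134 of all 12555 genes passed in turn. Among the other lists at 48 h, Eef1a1 was higher (0.51, q = 0.019) and Ddit4 lower (−1.58, q = 0.0026) with AC than with Luc. Tissue markers moved as well at 48 h: with AC, 2 of 8 cardiomyocyte markers were lower (median −0.52), 3 of 6 fibroblast markers and 1 of 4 atrial markers were higher, and of 10 neutrophil and monocyte markers 4 were higher and 1 lower. Their part in the differences of Eif4e and Eif2s1 was not tested.

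**Figure D5:**
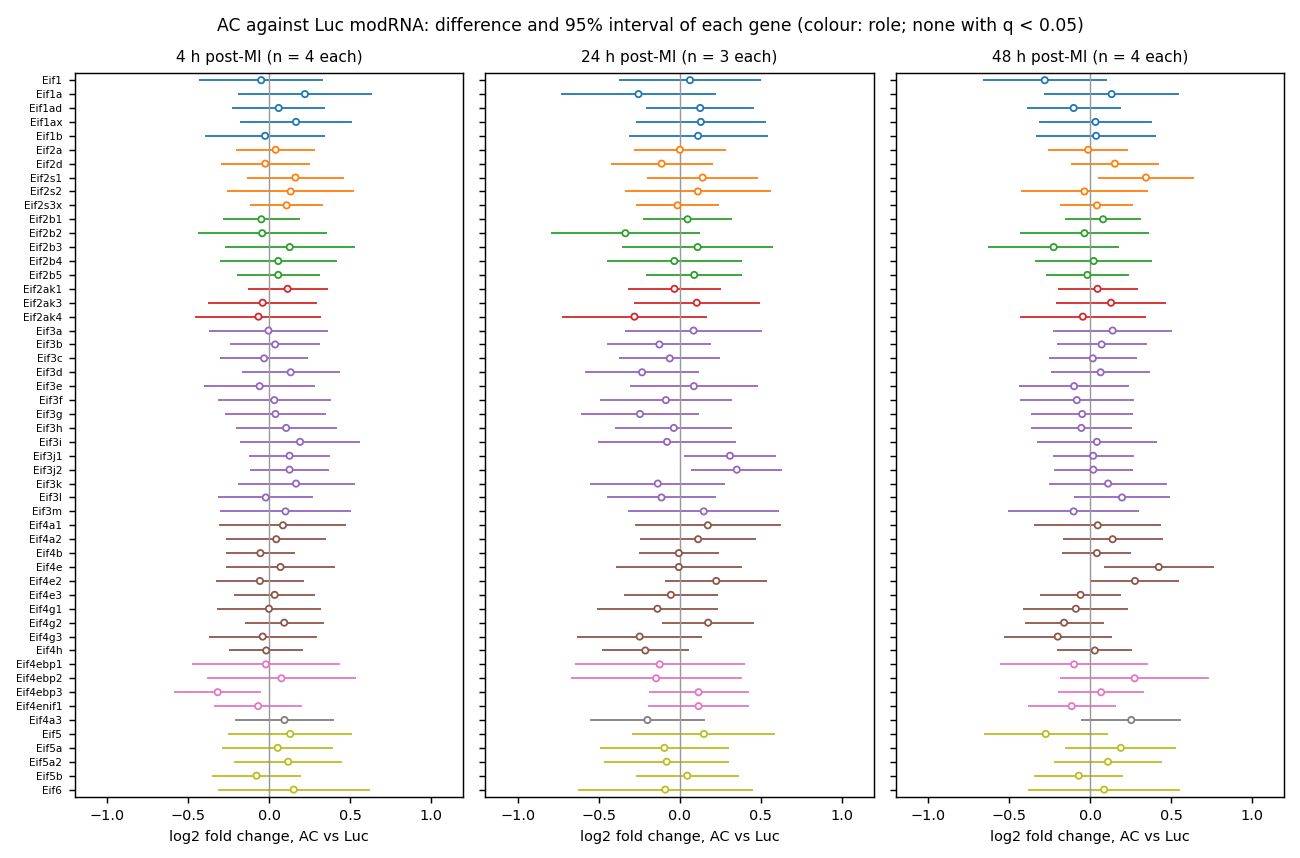
Log2 difference of CPM + 1, AC minus Luc modRNA, for the 52 initiation factor genes at 4 h, 24 h and 48 h, with lines for the 95% intervals. All intervals lie between −1 and 1, and no member passed q under 0.05.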

How the data were processed

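The authors aligned single-end reads of poly(A) RNA with STAR to mm10, counted them on RefSeq transcripts by expectation-maximization, scaled them by the trimmed mean of M values and deposited CPM values, with 1 added in the modRNA series and subtracted here. The expectation-maximization divided reads shared by paralogs, and whether strand was used is not given in the sources used here. Each series was analysed alone, since they were normalized separately. Genes averaging 1 CPM or more entered limma 3.58.1 (R 4.3.3) on log2(CPM + 1), with groups as the only factor and the trended empirical Bayes variance, and a call needed a Benjamini-Hochberg q under 0.05 over all genes. Fold changes on this scale understate the change of low genes. Per kilobase ratios used GENCODE transcript lengths. The members, the lists and the rule for genes given in every library (those called at 4 h, the leaders of each role at 24 h, and paralog pairs) were chosen with earlier results of these data known. Further genes were described after their values were seen. Tested on simulated data, the comparison of 24 h MI with sham recovered 7 of 67 genes changed 1.5-fold, 42 of 67 changed 2-fold and 64 of 66 changed 4-fold. For Luc hearts at 48 h against sham the counts were 6 of 67, 25 of 67 and 64 of 66. The simulation changed few genes and set the same dispersion for all. In the data 35.6% of genes rose and 30.3% fell at 24 h after MI, so these rates cannot be carried over to the calls. Other settings are listed at the end.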

Additional observations from a re-analysis of the deposited data

Results flagged for a closer look

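In 5 of 95 groups of 4 libraries examined, 1 library lay apart from the other 3 by Dixon's 95% criterion, which chance alone does in about 1 in 20 groups. Eif1a was at 83.49 CPM in 24 h library G of the infarct series, below the 104.8 to 107.7 of the others. Eif1ax was at 50.49 CPM in 24 h library H, above 41.72 to 42.18. In the modRNA series, AC library 1 at 4 h was high for Eif2b3 (19.09 CPM, the others 11.71 to 12.92) and for Eif4a2 (397.3 CPM, the others 261.6 to 284.7). Eif6 was at 27.05 CPM in Luc library 1 at 4 h, above 17.8 to 18.49 in the others.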

How the results depend on the processing

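Eif1a was the call at 4 h after MI. Array weights gave 8 calls, beside 1030 higher and 1470 lower among all genes (194 and 102 as reported). With the compared groups alone 2 were called, beside 345 and 360 of all genes. The transcript length balance as a covariate, an alternative chosen after seeing the data, gave 0, beside 39 and 3. Leaving out 1 library gave 0 to 2 calls, 0 without sham H or I and 2 without 24 h library G. Over all genes, 99 were then higher and 6 lower without H, 115 and 16 without I, and 277 and 283 without G. The 41 calls at 24 h against sham fell to 18 with the length covariate. Calls over all genes fell there as well, to 2064 higher and 733 lower. Of the 41 members, 33 were called under every other alternative run. Array weights gave 7 calls at 48 h in Luc hearts against sham (14 as reported) and 31 from 24 h to 48 h (19 as reported). At equal totals the calls were 16 at 24 h and 15 at 48 h against sham and 14 from 24 h to 48 h, with the direction of the majority turned. Median-ratio rescaling gave 15 at 48 h, also turned. The compared groups alone gave 3 and the length covariate 22. Over single libraries left out, counts ran from 9 to 22 at 24 h, lowest without sham 1, and from 8 to 18 at 48 h. Without sham 2 no member rose and 8 fell at 48 h, and without Luc library 2 or 4 the majority turned, with 14 and 16 calls. For AC against Luc at 48 h, where 0 were called, array weights and equal totals each gave 3 and the length covariate 2, all higher with AC. Among all 12555 genes, 1516 were called higher with AC and 410 lower as reported. With AC libraries 3 and 4 alone at 4 h, 0 were called. Eif4g3 from 24 h to 48 h, a fall as reported, was 0.007 at equal totals. The replicate block gave 33 calls at 24 h after MI (30 higher, 3 lower), 30 from 4 h to 24 h and 11 at 48 h in Luc hearts (6 higher, 5 lower, the majority turned). Over all genes the block called 3755 higher and 3743 lower at 24 h after MI. Libraries of different groups shared only a number or letter, with deviations correlated between −0.265 and 0.55, and the block could not be estimated across letters and numbers in the modRNA series. Of 150 calls of single members, dropping the filter on low values lost 1, a pseudocount of 0.1 CPM lost 0, a fit without variance trend lost 5, median-ratio rescaling 21 and the length covariate 26, all in the same direction, and equal totals lost 33 in the same direction besides the reversed Eif4g3. Member counts of the modRNA series under other settings are given without the calls over all genes. They show how the members' calls moved, and not a difference from other genes. The modRNA series rests on 2 sham hearts, and the depth of its single libraries could not be read from its values.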
